A study of Mus musculus with 6 samples.

Results

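The genes described here are 10 genes of mitochondrial dynamics and mitophagy, Mfn1, Mfn2, Opa1, Dnm1l, Fis1, Pink1, Bnip3, Bnip3l, Fundc1 and Phb2, chosen by name. All 10 were found among the 24972 gene rows of the table and all 10 were among the 12477 genes tested. RNA came from primary cardiomyocytes of MX1gfp mice, a green fluorescent protein reporter strain for the interferon-stimulated gene Mx1; both groups carried the reporter. The 3 control mice received an intraperitoneal injection of vehicle (phosphate-buffered saline). The other 3 received a single dose of doxorubicin, an anthracycline that poisons topoisomerase II and is toxic to the heart, at 25 mg per kg body weight. Hearts were taken 48 hours later, the ventricles were digested with collagenase, and myocytes were settled by gravity, which enriches them without sorting. The labels give neither age nor sex.

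Mitochondria of the cardiomyocyte fuse and divide. The mitofusins join the outer membranes and Opa1 joins the inner membranes and shapes the cristae, while the dynamin-like GTPase encoded by Dnm1l is drawn to the outer membrane by adaptors and constricts the organelle. Damaged mitochondria are removed by mitophagy, either through ubiquitin chains that follow from the kinase Pink1 or through receptors in the mitochondrial membranes that bind LC3 family proteins directly.

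Values are normalized read counts per gene. Depth was estimated by taking the smallest common value of a library as 1 read. It came to 7710000 to 11400000 reads with vehicle and 3670000 to 6170000 with doxorubicin, so that depth and treatment cannot be told apart. Even the lowest value of any of the 10 genes, that of Fundc1 in doxorubicin replicate 3, rested on about 134 reads. The deposited totals were 7217949 to 7500386 normalized counts with vehicle and 5410780 to 6498373 with doxorubicin. Doxorubicin replicate 1 lay closer to the vehicle libraries than the other two doxorubicin libraries did. Values without it, and without other libraries that decide whether groups overlap, are given with the genes concerned. Where groups separate once a library is chosen in this way, the separation follows from the choice and adds no evidence. Cardiomyocyte markers were abundant in all 6 libraries, but their summed level was lower with doxorubicin, as given further on. In RNA from a whole preparation, fewer cells of a type and less RNA per cell cannot be told apart.

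The 3 genes of the fusion machinery were lower in every doxorubicin library than in any vehicle library, as deposited. Their groups overlapped under some other scalings: Opa1 with equal totals, Mfn2 and Opa1 with quantile normalization, and all 3 when libraries were scaled to equal sums of 21 genes. These are called import and porin genes throughout, but they also hold the citrate synthase gene Cs and the chaperonin genes Hspd1 and Hspe1. Cs weighs most in the sum, with a vehicle mean of 12935 normalized counts against sums of 47086 to 49526 in the vehicle libraries. That last scaling put the median of all genes at 0.90 and gave differences of -0.24 for Mfn1, -0.015 for Mfn2 and -0.051 for Opa1, against -1.14, -0.91 and -0.95 relative to that median. Mfn1 (chromosome 3, 32529443 to 32579225, GRCm38), the more active tethering mitofusin, had 2865, 3166 and 3682 normalized counts with vehicle and 2513, 1160.0 and 1036 with doxorubicin, here and below in the order of the replicate numbers. The last 2 libraries held 0.358 and 0.320 times the vehicle mean, against 0.776 in doxorubicin replicate 1. The mean went from 3237.5 ± 413 to 1569.5 ± 819 (SD, n = 3 in each group). That is a difference of -1.16 on the log2(value + 1) scale (SE 0.34, 95% interval -1.94 to -0.37), with a limma adjusted p of 0.0859. The Mfn1 locus overlaps the gene Gnb4, with which reads could be shared if strand was not used in counting.

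Mfn2 (chromosome 4, 147873586 to 147904909), the mitofusin that also tethers mitochondria to the sarcoplasmic reticulum, had 7746, 7759 and 9400.2 normalized counts with vehicle and 6307, 4432 and 2936 with doxorubicin. Its 2 ranges were separate, with doxorubicin replicate 3 lowest at 0.354 times the vehicle mean. The difference was -0.93 (SE 0.31, 95% interval -1.65 to -0.21, limma adjusted p 0.0903), and -0.47 with quantile normalization. Opa1 (chromosome 16, 29579281 to 29663127), the inner membrane fusion GTPase, had 1810.4, 2161 and 2478 normalized counts with vehicle and 1734, 909 and 829 with doxorubicin. Doxorubicin replicate 1 was just under the lowest vehicle library, whereas replicates 2 and 3 held 0.423 and 0.386 times the vehicle mean. The difference was -0.96 (SE 0.30, 95% interval -1.65 to -0.27, limma adjusted p 0.0860).

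**Figure D1:**
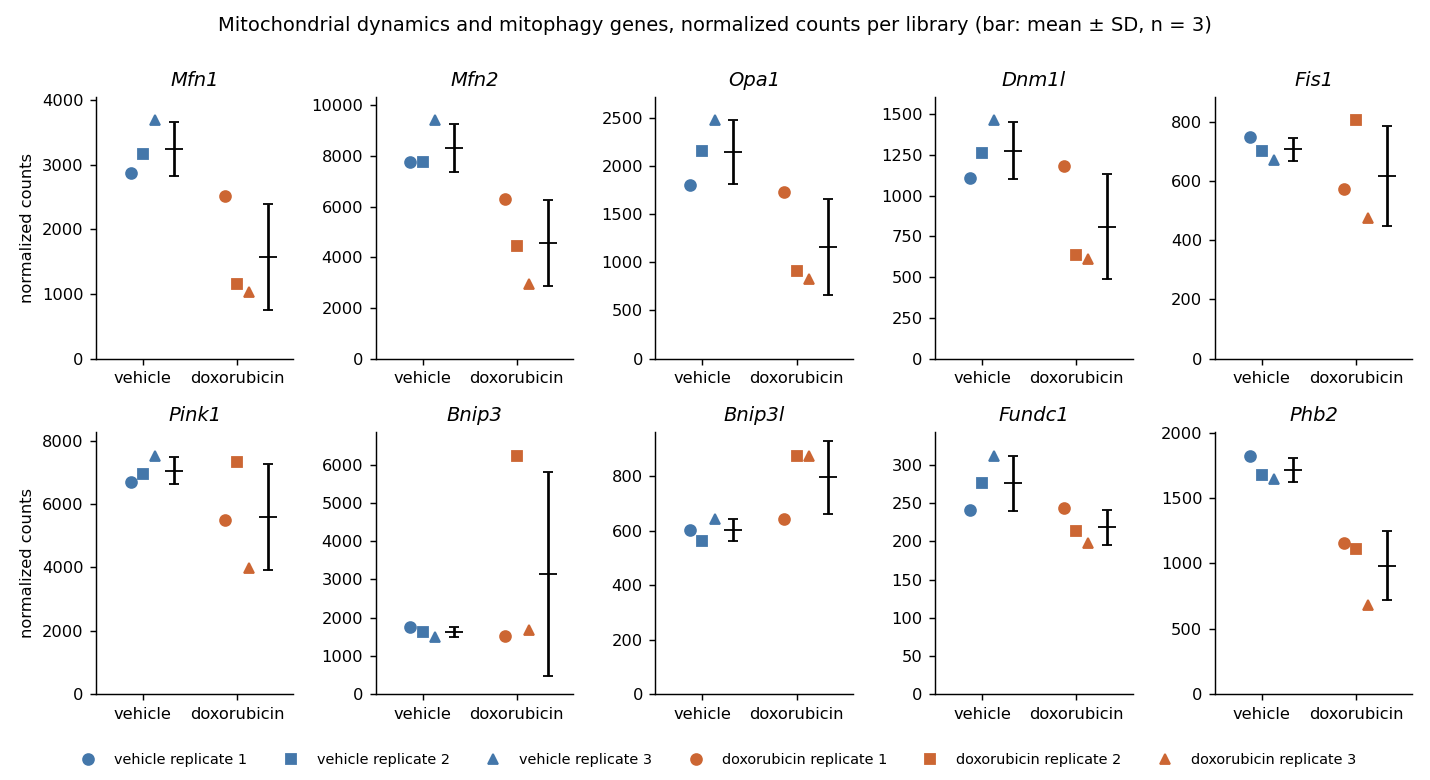
Normalized counts of the 10 genes (y axis, from 0) in 3 vehicle (blue) and 3 doxorubicin (orange) libraries, with replicates 1, 2 and 3 as circle, square and triangle, and the mean ± SD as a black bar. The groups are separate for Mfn1, Mfn2, Opa1 and Phb2, and doxorubicin replicate 2 stands alone for Bnip3 at 6236.

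Phb2 (chromosome 6, 124712289 to 124716945), the inner membrane prohibitin that supports Opa1 processing and serves as a mitophagy receptor once the outer membrane is ruptured, was the other gene with separate groups. It had 1823, 1679 and 1648 normalized counts with vehicle and 1155, 1112 and 681 with doxorubicin. It was at 0.673 times the vehicle mean in doxorubicin replicate 1, where Mfn1, Mfn2 and Opa1 were at 0.776, 0.760 and 0.807. The difference was -0.84 (SE 0.23, 95% interval -1.37 to -0.32, limma adjusted p 0.0859). The difference in Phb2 became 0.070 with import and porin scaling, which is -0.83 relative to the median of all genes. A small nucleolar RNA gene lies within its locus.

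Of the fission genes, Dnm1l was lower in 2 of the 3 doxorubicin libraries and Fis1 showed no common direction. Dnm1l (chromosome 16, 16312228 to 16359038) had 1110.2, 1260.2 and 1462 normalized counts with vehicle and 1180.0, 635 and 611 with doxorubicin. Doxorubicin replicate 1 lay inside the vehicle range, and the other two held 0.497 and 0.478 times the vehicle mean. The difference was -0.72 (SE 0.27, 95% interval -1.35 to -0.09, limma adjusted p 0.108), and 0.19 with import and porin scaling (-0.71 relative to the median of all genes). Without vehicle replicate 1 the groups did not overlap (-0.82, limma adjusted p 0.193). Fis1 (chromosome 5, 136953275 to 136966234), a small outer membrane protein that can bind the fission GTPase, had 750.4, 701 and 672 normalized counts with vehicle and 574, 806 and 477 with doxorubicin. Doxorubicin replicate 2 was above every vehicle library and the other two below. Its difference of -0.23 (SE 0.21, 95% interval -0.71 to 0.25, limma adjusted p 0.448) lay within the replicate spread, and was 0.075 with equal totals, where the median of all genes stood at 0.29, and 0.68 with import and porin scaling. Relative to those medians it was -0.22 and -0.21. Without doxorubicin replicate 2 it was -0.43, with separate groups (limma adjusted p 0.166), and without doxorubicin replicate 3 it was -0.057.

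Pink1 (chromosome 4, 138313409 to 138326296), the kinase that accumulates on depolarized mitochondria and phosphorylates ubiquitin, had 6689.5, 6942 and 7526 normalized counts with vehicle and 5482, 7319.8 and 3984 with doxorubicin. Doxorubicin replicate 2 was within the vehicle range and the other two libraries were below it. The difference of -0.38 (SE 0.27, 95% interval -1.01 to 0.26, limma adjusted p 0.34) lay within the replicate spread. It was -0.59 without doxorubicin replicate 2, with separate groups (limma adjusted p 0.185), and -0.15 without doxorubicin replicate 3. Its sign turned under quantile normalization (0.085, or 0.11 relative to the median of all genes) and import and porin scaling (0.54, but -0.36 relative to that median). A microRNA gene, Mir7019, lies within the Pink1 locus.

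Of the outer membrane receptors among the 10 genes, Bnip3 and Bnip3l had higher means with doxorubicin and Fundc1 a lower one. Bnip3 (chromosome 7, 138890836 to 138909506), a BH3-like receptor known as a target of hypoxia signalling, had 1751, 1623 and 1491 normalized counts with vehicle and 1527, 6236 and 1674 with doxorubicin. The value of doxorubicin replicate 2 was 3.84 times the vehicle mean, and the other two lay inside the vehicle range. Its difference of 0.64 (SE 0.50, 95% interval -0.53 to 1.80, limma adjusted p 0.38) rested on that library and was -0.018 without it. A pseudogene, Gm18258, overlaps the Bnip3 locus.

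Bnip3l (chromosome 14, 66985238 to 67008877), the paralogue also called Nix that clears mitochondria from maturing red cells, had 603, 563 and 642.3 normalized counts with vehicle and 642.1, 875 and 876 with doxorubicin. Doxorubicin replicates 2 and 3 both held 1.45 times the vehicle mean, while replicate 1 equalled the highest vehicle library to within 1 count. The difference was 0.39 (SE 0.17, 95% interval -0.01 to 0.79, limma adjusted p 0.142), and 0.44 with separate groups without vehicle replicate 3 (adjusted p 0.280). Fundc1 (chromosome X, 17519967 to 17572329), a receptor whose LC3 binding is controlled by phosphorylation, had 240.5, 276 and 312 normalized counts with vehicle and 243, 214 and 198 with doxorubicin. Doxorubicin replicate 1 overlapped the vehicle libraries and the other two were below them. The difference was -0.33 (SE 0.16, 95% interval -0.71 to 0.04, limma adjusted p 0.174), and 0.57 with import and porin scaling (-0.32 relative to the median of all genes). Without vehicle replicate 1 the groups did not overlap (-0.43, limma adjusted p 0.201).

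Promoter windows are shown for Mfn1 and Opa1, each of which had the other as its nearest neighbour among the 10 genes, and for Bnip3, the gene farthest from any neighbour. Each runs from 250 bases before to 50 after a RefSeq transcript start (GRCm38.p6), 5′ to 3′ on the gene's strand, with motif matches in capitals. The windows are chr3:32529232-32529531 (plus strand) for Mfn1, chr16:29579084-29579383 (plus strand) for Opa1 and chr7:138909457-138909756 (minus strand) for Bnip3.
Mfn1: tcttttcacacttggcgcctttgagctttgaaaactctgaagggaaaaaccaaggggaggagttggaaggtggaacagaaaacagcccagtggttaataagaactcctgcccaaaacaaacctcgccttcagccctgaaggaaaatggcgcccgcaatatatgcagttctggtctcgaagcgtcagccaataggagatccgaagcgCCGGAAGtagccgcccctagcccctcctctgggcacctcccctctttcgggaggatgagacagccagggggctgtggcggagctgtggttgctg
Opa1: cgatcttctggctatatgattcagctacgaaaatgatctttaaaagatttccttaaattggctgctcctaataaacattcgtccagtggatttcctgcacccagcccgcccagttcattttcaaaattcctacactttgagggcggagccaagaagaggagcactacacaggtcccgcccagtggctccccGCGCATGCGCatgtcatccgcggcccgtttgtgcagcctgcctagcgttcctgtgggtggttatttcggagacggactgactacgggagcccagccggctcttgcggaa
Bnip3: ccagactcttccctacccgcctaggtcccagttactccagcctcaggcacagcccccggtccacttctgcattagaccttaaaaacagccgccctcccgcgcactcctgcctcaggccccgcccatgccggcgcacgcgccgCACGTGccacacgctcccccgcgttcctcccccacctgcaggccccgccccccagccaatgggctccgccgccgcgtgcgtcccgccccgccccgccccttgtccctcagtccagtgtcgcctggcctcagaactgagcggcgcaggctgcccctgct

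Windows of 9 of the 10 genes, all but Bnip3l, were searched on both strands for 5 short motifs. The ETS core CCGGAAG, which GABP binds and which is common at genes for mitochondrial proteins, was found in Mfn1, Dnm1l, Fis1 and Phb2, and in 8.86% of 32851 mouse promoter windows. The NRF1 core GCGCATGC was found in Opa1, where 2 matches, 1 on each strand, overlap, and in 2.71% of windows. The E-box CACGTG was found in Bnip3 and in 7.15% of windows. ACGTG, 1 form of the core of the hypoxia response element and a part of that E-box, was found in Bnip3, Mfn2 and Phb2 and in 19.6% of windows. The other form, GCGTG, was not searched for. The oestrogen-related receptor element TCAAGGTCA was in 0 of the 9 genes and in 0.423% of windows. Windows of Pink1 and Fundc1 held none of the 5. The ETS core was found both in genes with separate groups (Mfn1, Phb2) and in genes with overlapping groups (Dnm1l, Fis1), and the matches are a description of the letters only. Mfn2, Fis1 and Dnm1l have more than 1 window, and a gene is named where any of them held the motif.

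**Figure D2:**
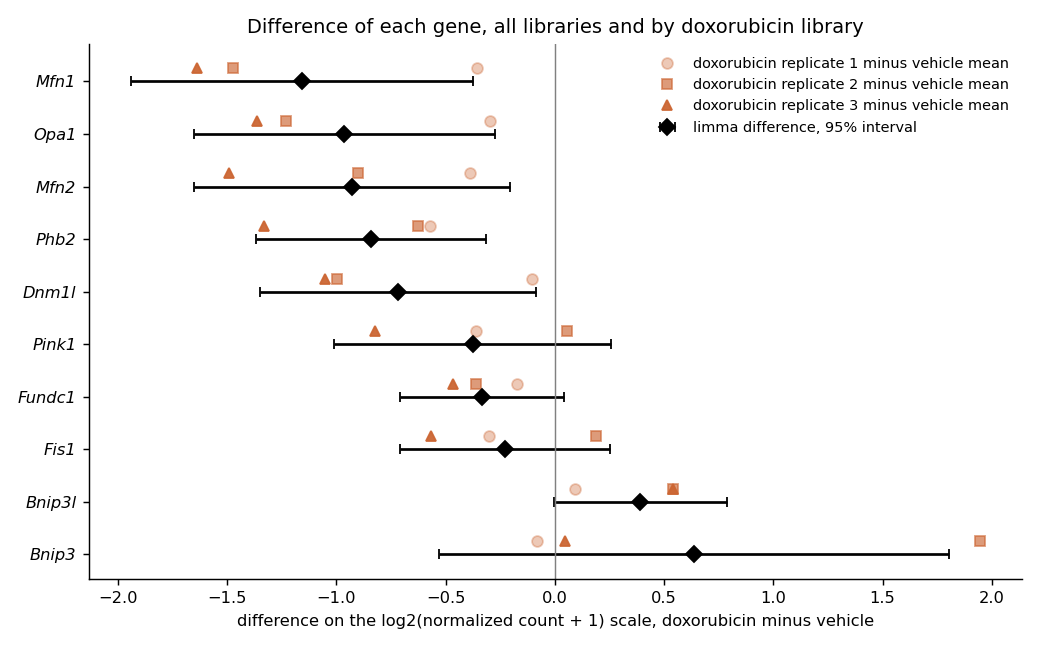
Difference between doxorubicin and vehicle on the log2(normalized count + 1) scale (x axis) for the 10 genes (y axis). Black diamonds and bars are the limma difference and its 95% interval, not adjusted for the number of genes, and orange symbols are single doxorubicin libraries against the vehicle mean. Mfn1 is lowest at -1.16 and Bnip3 highest at 0.64, and doxorubicin replicate 1 (circle) is nearest to 0 for Mfn1, Mfn2, Opa1, Dnm1l and Phb2.

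At a limma adjusted p under 0.05, 0 of the 10 genes were higher and 0 lower, as were 0% of all genes tested. In all, 8 of the 10 were lower, against 50.4% of all genes, and 2, Bnip3 and Bnip3l, were higher, against 49.6%. Separate groups were seen for 4 lower genes (Mfn1, Mfn2, Opa1, Phb2), against 22.6% of all genes, and for 0 of the higher ones, against 19.2%. At an unadjusted limma p under 0.05 there were 5 lower genes (these 4 and Dnm1l), against 19.3% of all genes, and 0 higher, against 16.7%. At an adjusted p under 0.10 there were 4 lower, against 13.1%, and 0 higher, against 11.1%. The median difference was -0.55 over the 10 genes and 0.00 over all genes.

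Doxorubicin replicate 1 decided the calls. Without it, limma called 5 of the 10 genes lower (21.8% of all genes tested) and 1 higher (19.3%) at an adjusted p under 0.05. The differences were then -1.55 for Mfn1 (adjusted p 0.000573), -1.30 for Opa1 (0.00124), -1.03 for Dnm1l (0.00219), -1.20 for Mfn2 (0.0066) and -0.98 for Phb2 (0.00893), and 0.54 for Bnip3l (0.0161). Fundc1 (-0.41, 0.0739), Bnip3 (1.00, 0.117), Pink1 (-0.38, 0.306) and Fis1 (-0.19, 0.518) did not pass.

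The libraries fell into a class with Y-linked transcripts (vehicle replicates 1 and 2, doxorubicin replicate 2) and a class with Xist (vehicle replicate 3, doxorubicin replicates 1 and 3). Within these classes, too small to test, the fusion genes and Phb2 were lower with doxorubicin in both. Mfn1 was at -1.38 and -1.19, Mfn2 at -0.81 and -1.13, Opa1 at -1.12 and -1.05 and Phb2 at -0.65 and -0.89, in the Y and Xist classes respectively. Bnip3 was at 1.89 in the Y class, which holds doxorubicin replicate 2, and 0.10 in the Xist class. Bnip3l was at 0.59 and 0.22, Fundc1 at -0.27 and -0.50, and Dnm1l at -0.90 and -0.78. Pink1 (0.10 and -0.69) and Fis1 (0.15 and -0.36) had opposite signs in the classes.

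Similarity of pattern was measured as the root mean square difference, over the 6 libraries, of log2 values relative to the vehicle mean. Mfn1 and Opa1 differed by 0.155, and Opa1 was also the nearest of the 10 genes to Mfn2 (0.167) and Dnm1l (0.177). Pink1 and Fis1 were nearest to each other (0.153), Fundc1 was nearest to Pink1 (0.243) and Phb2 to Mfn2 (0.196). Bnip3l was 0.508 from Fis1 and Bnip3 0.622 from Bnip3l, so the receptors of the BNIP3 family stood apart from the others and from each other. Among all tested genes with a mean of at least 100, the 5 nearest to the median pattern of the 10 genes (-0.30, -0.49 and -0.94 in doxorubicin replicates 1 to 3) were Ghitm (0.0267), Lonp1 (0.0311), R3hdm2 (0.0397), Hspa4 (0.0412) and Zfp787 (0.0462). Of these 5, only Ghitm and Lonp1 encode mitochondrial proteins, an inner membrane protein and the matrix protease that degrades damaged proteins.

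Ratios of 2 genes within a library do not depend on how libraries were scaled. The log2 ratio of Opa1 to Dnm1l was 0.70, 0.78 and 0.76 with vehicle and 0.55, 0.52 and 0.44 with doxorubicin, so the fusion gene was lower relative to the fission gene in every doxorubicin library. The mean went from 0.75 ± 0.04 to 0.50 ± 0.06 (SD, n = 3 in each group). The log2 ratio of Pink1 to Phb2 was 1.88, 2.05 and 2.19 with vehicle and 2.25, 2.72 and 2.55 with doxorubicin, again with separate groups, and the mean went from 2.04 ± 0.16 to 2.50 ± 0.24 (n = 3 in each group). For both, the exact two-sided permutation p was 0.1, the smallest that 3 libraries against 3 allow, and 0.3 after adjustment over the 6 ratios compared, so neither passes 0.05.

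The other 4 ratios overlapped between groups. Mfn2 to Mfn1 had a log2 ratio of 1.29 to 1.43 with vehicle and of 1.33, 1.93 and 1.502 with doxorubicin. Dnm1l to Fis1 had 0.56 to 1.12 with vehicle and 1.04, -0.34 and 0.36 with doxorubicin. Bnip3 to Bnip3l had 1.21 to 1.54 with vehicle and 1.25, 2.83 and 0.93 with doxorubicin. Fundc1 to Bnip3 had -2.86 to -2.25 with vehicle and -2.65, -4.86 and -3.07 with doxorubicin. Doxorubicin replicate 2 gave the extreme value of each of these 4, and exact permutation p values were 0.2 to 0.9 (0.36 to 0.9 adjusted).

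**Figure D3:**
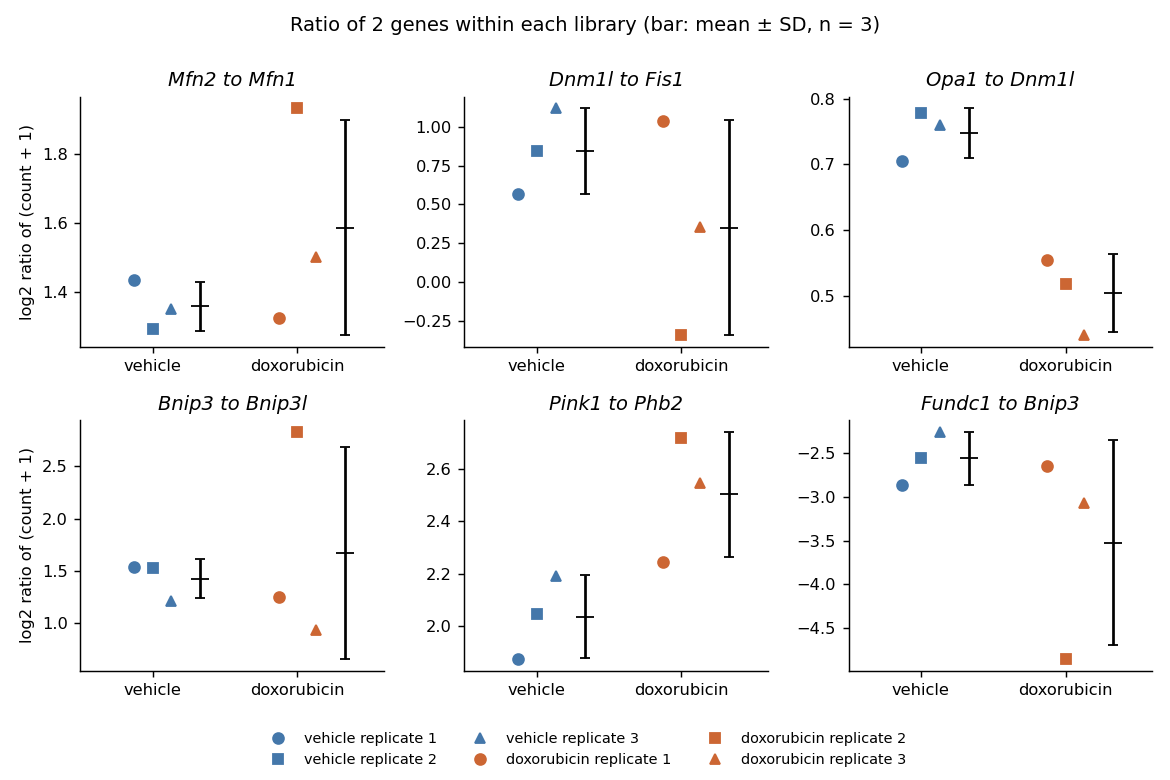
Log2 ratio of 2 genes within each library (y axis, not from 0) for 6 pairs, in vehicle (blue) and doxorubicin (orange) libraries, with the mean ± SD as a black bar. Groups are separate for Opa1 to Dnm1l and Pink1 to Phb2, and doxorubicin replicate 2 (orange square) lies at an extreme of the other 4 panels.

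Levels can be compared between genes only per length. Per kilobase of transcript, using the median length of transcripts matched to RefSeq, Pink1 had the highest vehicle level at 2969.5 ± 181 normalized counts per kb (SD, n = 3), followed by Mfn2 at 1957.5 ± 224, Phb2 at 1302 ± 70.7 and Bnip3 at 924 ± 73.8. These 4 did not overlap with each other. Fis1 (816 ± 45.8) and Mfn1 (709.7 ± 90.6 per kb) came next; neighbours in the order Bnip3, Fis1, Mfn1 overlapped between libraries, as did Fundc1 (463 ± 60.0), Opa1 (455 ± 70.6) and Dnm1l (388 ± 53.6). Bnip3l was lowest at 186 ± 12.2. With doxorubicin, Bnip3 had the second highest mean at 1791 ± 1525 per kb, a mean set by replicate 2. Opa1, Dnm1l and Bnip3l were then level, at 245 ± 106, 246 ± 97.7 and 246 ± 41.6 per kb. The place of Fundc1 depends on the transcript used, since its longest transcript gives 139 per kb with vehicle.

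Genes of the surrounding pathways were taken from 6 lists, of which 94 genes were in the table. At a limma adjusted p under 0.05, 0 genes of any list passed. The counts of genes with separate groups stand beside 22.6% of all genes lower and 19.2% higher. Equal totals and import and porin scaling move all genes nearly alike, so list medians under them are to be read against the medians of all genes, 0.29 and 0.90. The first list holds other genes of fusion, cristae and inner membrane shape, and all 20 of its 21 genes that were tested were lower. The groups did not overlap in 17, and the median was -0.87 as deposited, against 0.038 with import and porin scaling. Apool, a component of the MICOS complex that holds crista junctions, had a vehicle mean of 444 ± 35.5 and a doxorubicin mean of 213 ± 66.1 (SD, n = 3 in each group; log2 difference -1.10, limma adjusted p 0.0859). Oma1, the stress-activated protease that cleaves Opa1, had -0.85 (adjusted p 0.0859), from 256 ± 9.67 to 145 ± 41.5. Yme1l1, the other Opa1 protease, had -0.15 (adjusted p 0.456), with overlapping groups. Chchd10, which had the highest normalized count of the list (not divided by length), had -1.07 (adjusted p 0.0886).

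The fission list was mixed. Of its 15 genes 12 were tested, 7 lower and 5 higher, with groups that did not overlap in all 7 lower and in 3 of the higher genes. The median was -0.48 as deposited, against 0.43 with import and porin scaling and -0.32 without doxorubicin replicate 3. Mtfp1, an inner membrane protein that promotes division, had the lowest difference of any gene in the 6 lists at -2.001 (limma adjusted p 0.0859). It held 1124 to 1141 normalized counts with vehicle, and 760.4, 156 and 189 with doxorubicin. The adaptors that draw the Dnm1l product to mitochondria, Mff (-0.59, adjusted p 0.108) and Mief1 (-0.38, adjusted p 0.123), were lower in every doxorubicin library, and so was Mtfr1l (-0.71, adjusted p 0.0863). Spire1, an actin nucleator, was higher in every doxorubicin library, from 49.0 ± 3.35 to 87.7 ± 14.0 (0.82, adjusted p 0.0859). The largest positive difference was that of Inf2, a formin that assembles actin at division sites, named here after its values were seen (1.19, limma adjusted p 0.0860).

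In the list of the Pink1 pathway all 13 genes were tested, with 7 lower and 6 higher, and groups that did not overlap in 6 lower and 4 higher genes. The median was -0.27 as deposited, against 0.029 with equal totals and 0.64 with import and porin scaling. Relative to the medians of all genes it was -0.27, -0.27 and -0.26. Leaving out doxorubicin replicate 3 gave -0.084 and leaving out vehicle replicate 1 gave -0.17. Csnk2a1, a casein kinase catalytic subunit, had -0.64 (limma adjusted p 0.0859), Usp15, a deubiquitinase that opposes mitophagy, -0.49 (adjusted p 0.0878) and Vcp, the segregase that extracts ubiquitylated proteins, -0.40 (adjusted p 0.185). The 4 higher genes with separate groups are named here after their values were seen. They were Tbk1 (0.53, limma adjusted p 0.136), Usp30 (0.35, 0.154), Ambra1 (0.33, 0.141) and Csnk2a2 (0.32, 0.201). Usp30 is also a deubiquitinase, and Csnk2a2 is another casein kinase catalytic subunit.

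The list of other receptors, adaptors and LC3 family genes had a median of -0.09 over 16 tested genes, with 11 lower and 5 higher, as deposited. The median was 0.21 with equal totals, 0.030 with quantile normalization and 0.82 with import and porin scaling, which are -0.080, 0.053 and -0.075 relative to the medians of all genes. It was -0.215 without doxorubicin replicate 2, -0.019 and -0.024 without doxorubicin replicates 1 and 3, and -0.050 without vehicle replicate 3. Groups did not overlap in 4 lower and 0 higher genes of 16, a share near that of all genes for lower genes. Optn, a ubiquitin-binding adaptor, had -0.81 (limma adjusted p 0.0859). The outer membrane receptors Bcl2l13 (-0.46, adjusted p 0.148) and Fkbp8 (-0.18, adjusted p 0.365) also had separate groups. Sqstm1, the p62 adaptor, had 3027, 3208 and 3042 normalized counts with vehicle and 2528, 7312 and 3999 with doxorubicin. Map1lc3a, the LC3 gene with the highest vehicle normalized count of the list, had 4089 to 5158 with vehicle and 3047, 6083 and 1960.4 with doxorubicin. Gabarapl1, a GABARAP gene named after its values were seen, had 708 to 781 with vehicle and 716, 2283 and 1223 with doxorubicin. All 3 were highest in doxorubicin replicate 2, the library with the high Bnip3 value. Optn and Bcl2l13 were not, and how many genes of the list or of all genes were highest there was not counted. Calcoco2 was listed at 0 in all 6 libraries.

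Tested genes of the transport list, which concerns movement of mitochondria on microtubules, and of the import and porin list were lower as deposited. All 7 tested transport genes were lower, 6 with separate groups, with a median of -0.87 (0.044 with import and porin scaling). They include the metaxin gene Mtx2 (-1.07, limma adjusted p 0.0859) and the motor adaptors Trak2 (-0.87, adjusted p 0.0859) and Trak1 (-1.002, adjusted p 0.0863). All 21 genes of the import and porin list were lower, 18 with separate groups, with a median of -0.80 (0.11 when scaled to their own sum). They include the import subunits Tomm22 (-0.71, adjusted p 0.0859) and Tomm5 (-1.17, adjusted p 0.0859). Cs, citrate synthase, which is neither an import nor a porin gene, had -1.15 (adjusted p 0.0878). Without doxorubicin replicate 1, limma called 15, 7, 6, 2, 6 and 18 genes lower and 0, 4, 1, 2, 0 and 0 higher in the 6 lists, in the order in which they are given here. Over all genes that fit called 21.8% lower and 19.3% higher.

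**Figure D4:**
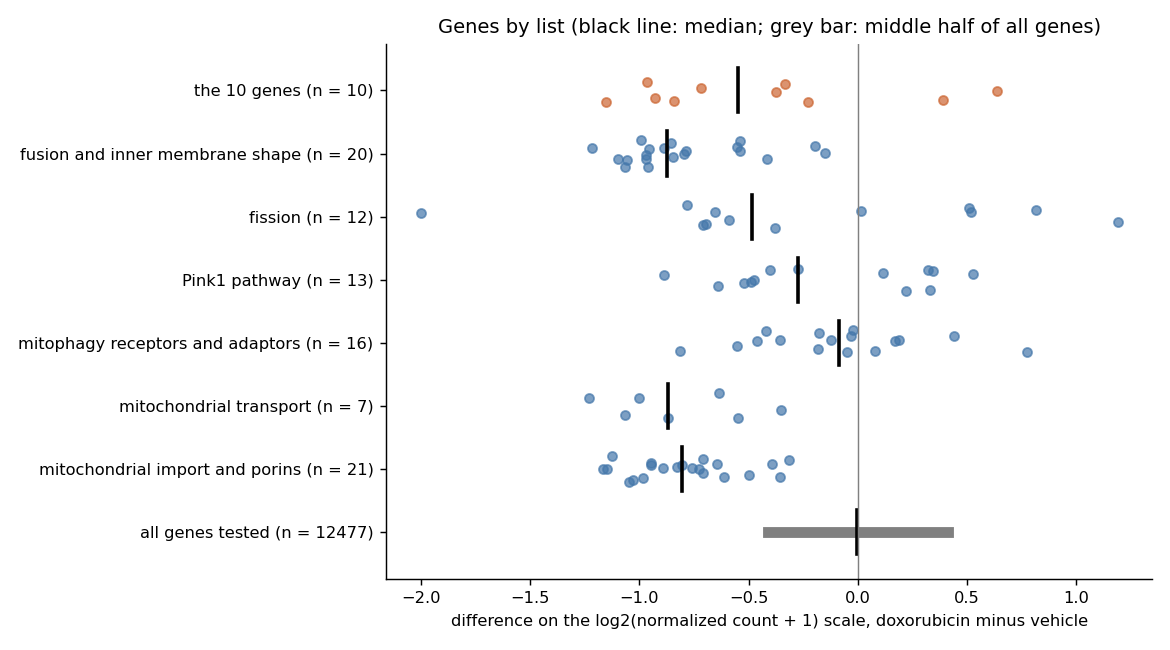
Difference between doxorubicin and vehicle on the log2(normalized count + 1) scale (x axis) for each tested gene of the 10 genes (orange) and of 6 lists (blue), with list medians as black lines. The grey bar spans the interquartile range of all 12477 genes. The medians of fusion, transport and import genes are -0.87, -0.87 and -0.80 as deposited (0.038, 0.044 and 0.11 with import and porin scaling), and that of receptors and adaptors is -0.09 (0.82).

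Set against the mean log2 value of the 21 import and porin genes within each library, which stood at -0.40, -0.77 and -1.21 relative to vehicle in doxorubicin replicates 1 to 3, the 10 genes did not all stand alike. Mfn1, Mfn2, Opa1, Dnm1l and Phb2 differed by -0.36, -0.13, -0.17, 0.07 and -0.05, with overlapping groups. Bnip3 (1.43), Bnip3l (1.18), Fis1 (0.57) and Fundc1 (0.46) were higher relative to the import genes in every doxorubicin library than in any vehicle library. So were 64.7% of all genes, and 1.28% were lower in the same way. The median of all genes stood at 0.79 on this scale, above Fis1 and Fundc1 and below Bnip3 and Bnip3l. The relative value of Bnip3l was -0.85, -0.88 and -0.72 with vehicle and -0.32, 0.49 and 0.93 with doxorubicin. Pink1 (0.42) overlapped, because doxorubicin replicate 1, at 2.77, was under vehicle replicate 3, at 2.83. These are descriptions without a test.

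**Figure D5:**
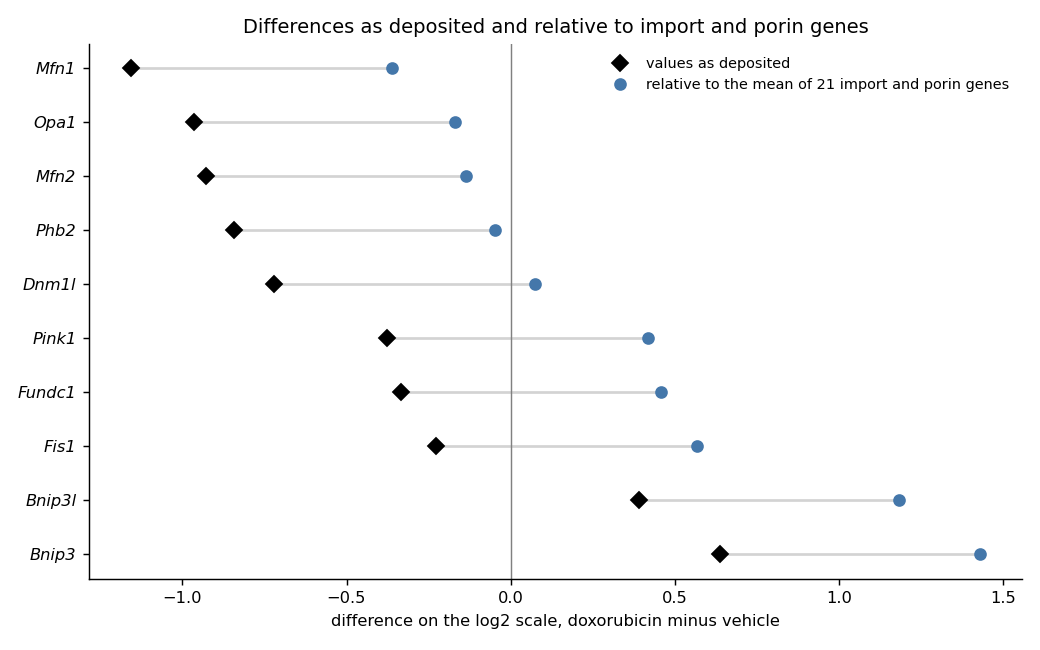
Difference between doxorubicin and vehicle on the log2 scale (x axis) for the 10 genes (y axis), from values as deposited (black diamonds) and relative to the mean of 21 import and porin genes in the same library (blue circles). The 21 also hold Cs, Hspd1 and Hspe1. Relative to the import genes, Mfn2, Opa1, Phb2 and Dnm1l lie between -0.17 and 0.07 and Bnip3 and Bnip3l at 1.43 and 1.18.

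Markers of cell types moved with treatment as well, and their part in the differences above was not tested. All 10 cardiomyocyte markers were lower, with summed levels of 592663 to 705695 normalized counts with vehicle and 146861 to 533360 with doxorubicin, and a median difference of -1.53. All 10 macrophage markers were higher, with sums of 2489 to 2727 with vehicle and 4149 to 15479 with doxorubicin. The 4 tested neutrophil markers of 6 were higher (sums of 10.5 to 21.7 with vehicle and 55.0 to 563 with doxorubicin; Ly6g and Retnlg were at 0 in at least 1 library). Fibroblast markers were higher in 7 of 8 (sums of 6236 to 8274 and 8639 to 22816) and endothelial markers in 7 of 8 (13112 to 16872 and 20433 to 26389.7). Mural markers were higher in 3 of 6 (6611 to 11656 and 8255 to 11766). Of 6 lymphocyte markers 0 passed the filter (12.6 to 29.5 and 3.61 to 51.4), and each was at 0 in at least 1 library. Erythroid markers were higher in 0 of 4 tested (1211 to 2104 and 250 to 9027). Hbb-bs was at 0 in all libraries, and Hba-a2 and Hbb-bt in at least 1. Atrial markers were higher in 4 of 4 tested (456 to 526 and 368 to 1431), and a further atrial marker, Bmp10, was at 0 in at least 1 library. Doxorubicin replicate 1 had the highest sum of both lists.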

How the data were processed

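STAR, run in BaseSpace, aligned the reads to mm10 (RefSeq) per the series' design text; the submitters' processing notes give STAR 2.6.1a and also name Salmon. Of the counting step, use of strand and scaling, the sources used here say nothing. The deposited signal is in normalized read counts, with 1 column per library. Groups and replicate numbers came from sample titles.

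log2(value + 1) values of genes with a mean of at least 10 were compared with limma 3.58.1 in R 4.3.3 (empirical Bayes with trend, two-sided, Benjamini-Hochberg over all 12477 genes, threshold 0.05). As a check of the code only, the fit was run on simulated data with the same spread in every library. The libraries here did not share a common spread: doxorubicin replicate 1 had a library weight of 0.277 and vehicle replicate 2 one of 3.24. The labels do not say whether replicates share a litter or day. The p-values measure the spread between these libraries, in which animal, preparation and depth cannot be told apart. Depth was estimated from the most common low value, taken as 1 read, and is approximate. Dividing by that value did not return whole reads closely enough, so no test on counts was run. Lengths came from GENCODE M21, coordinates and promoters from RefSeq GRCm38.p6, figures from matplotlib 3.10.9.

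The 10 genes, the lists and the alternatives were chosen with earlier results of these data known. The text names the 10 genes, the 2 genes with the smallest p and the gene of highest vehicle mean of each list, 8 fixed partners and the nearest genes by pattern; exceptions are stated, and 1 of the partners is not reported here. 1 list gene was not matched to a row.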

Additional observations from a re-analysis of the deposited data

How the results depend on the processing

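With equal totals, which put the median of all genes at 0.29, Fis1 became 0.075, 1 of the 10 genes was higher with separate groups (Bnip3l), Opa1 lost its separation, and the medians of the fission, Pink1 pathway and receptor lists became -0.18, 0.029 and 0.21. Quantile normalization gave Pink1 0.085, 2 lower and 1 higher gene with separate groups (Mfn2, at -0.47, and Opa1 overlapped), and a receptor median of 0.030. Scaling to equal sums of import and porin genes put the median of all genes at 0.90, with 4967 genes called higher and 12 lower. It gave Dnm1l 0.19, Fis1 0.68, Pink1 0.54, Fundc1 0.57 and Phb2 0.070, called Bnip3 (1.55) and Bnip3l (1.30), 2 of the 10, and left 0 lower and 3 higher genes with separate groups. The list medians were then 0.038 (fusion), 0.43 (fission), 0.64 (Pink1 pathway), 0.82 (receptors), 0.044 (transport) and 0.11 (import). Relative to the median of all genes, Fis1 was -0.22 under equal totals, and under import and porin scaling Dnm1l, Fis1, Pink1, Fundc1 and Phb2 were -0.71, -0.21, -0.36, -0.32 and -0.83. The share of all genes with separate groups was not worked out under these scalings, so the counts of separate groups cannot be set against it.

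Library weights, which gave doxorubicin replicate 1 a weight of 0.277, called 1954 genes higher and 2318 lower, and 7 of the 10: Mfn1 (-1.34), Mfn2 (-0.94), Opa1 (-1.13), Dnm1l (-0.88), Phb2 (-0.77), Bnip3 (1.20) and Bnip3l (0.50); the receptor median was 0.021. An adjusted p under 0.10 gave 1383 higher and 1639 lower genes, and 4 of the 10.

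Leaving out 1 library at a time gave 0 to 2409 genes called higher, 0 to 2718 lower and 0 to 6 of the 10 called, with 4 to 6 lower and 0 to 1 higher genes with separate groups. Smaller groups separate more easily. The share of all genes with separate groups was not worked out for these fits, so these counts cannot be set against it. Differences ran from -1.55 to -0.91 (Mfn1), -1.20 to -0.64 (Mfn2), -1.30 to -0.76 (Opa1), -1.03 to -0.55 (Dnm1l), -0.98 to -0.60 (Phb2), -0.018 to 0.997 (Bnip3), 0.32 to 0.54 (Bnip3l), -0.43 to -0.057 (Fis1), -0.59 to -0.15 (Pink1) and -0.43 to -0.24 (Fundc1), with Bnip3 lowest without doxorubicin replicate 2. List medians ran from -1.14 to -0.68 (fusion), -0.60 to -0.32 (fission), -0.38 to -0.084 (Pink1 pathway), -0.215 to -0.019 (receptors), -1.13 to -0.66 (transport) and -0.999 to -0.58 (import). The difference in the log2 ratio of Bnip3 to Bnip3l ran from -0.33 to 0.62.

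The deviations of same-numbered libraries from their group means correlated at -0.13, 0.03 and -0.09, and no library correlated best with its own number. Such correlations cannot show whether same-numbered libraries share a litter or day. With the replicate number as a block, 0 genes were called higher and 0 lower, and 3708 had an unadjusted p under 0.05 against 4485 without the block. The adjusted p under the block was 0.116 for Mfn1, 0.128 for Opa1, 0.156 for Mfn2 and 0.115 for Phb2. Pseudocounts of 0.5 and 8, no filter and a minimum mean of 50 left 0 of the 10 genes called at 0.05, as in the main fit. So did no trend, robust estimation and the class covariate. At the 0.10 threshold, Mfn1, Mfn2, Opa1 and Phb2 no longer passed with no trend (limma adjusted p 0.111 each). They also failed with the class covariate (0.105, 0.126, 0.105 and 0.109), and Mfn2 failed with no filter (0.123). Shallow doxorubicin libraries limit the precision of genes with low counts.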
